A study of Mus musculus with 2 samples.

Results

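The stretch of mouse chromosome 10 examined here runs from the proto-oncogene Myb to beyond the kinase gene Sgk1, and it held 9 of the 2827 Tcf1 peaks in the authors' list. Its members were chosen by position: every peak whose midpoint lay between 20.8 and 22 Mb of chromosome 10 in mm9. The interval was itself selected on the crowding of peaks in this list, so the number and closeness of its peaks are described and not tested. The peaks came from ChIP-seq, in which DNA crosslinked to a protein is precipitated and sequenced, on CD8 T cells taken untouched from the spleens of wild-type C57BL/6 mice. The study held 2 libraries from these cells, 1 precipitated by a custom Tcf1 antiserum raised in rabbit and 1 by pre-immune rabbit serum from another antibody project. The sources used here give neither the age of the mice nor how many contributed to each library. The depth of sequencing is unknown, since the list holds intervals with scores and no reads, and there was no replicate library.

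Tcf1, encoded by Tcf7, is an HMG-box factor of the TCF/LEF family that binds short sites of the type CTTTGAA or CTTTGAT and can recruit beta-catenin in the Wnt pathway. In CD8 T cells it is known for its part in the naive, memory and stem-like states. Myb encodes a DNA-binding transcription factor needed in blood stem cells and in developing T cells. Its neighbour Hbs1l encodes a GTPase that helps to rescue stalled ribosomes, and the DNA between both genes is known for distant enhancers of Myb in red blood cell precursors. Sgk1 encodes the serum- and glucocorticoid-regulated kinase, which acts downstream of PI3K and mTORC2 and controls ion transport and, in T cells, differentiation.

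In a RefSeq gene table for GRCm38.p6, which is a later build than mm9 and was used only for names, order, strand and spacing, the protein-coding genes stood in the order Ahi1, Myb, Hbs1l, Aldh8a1, Sgk1. Beyond Sgk1 followed 4930444G20Rik, E030030I06Rik, Raet1e, H60b and Raet1d; the Raet1 and H60 families encode ligands of the natural killer receptor NKG2D. Myb is transcribed toward lower coordinates, so its start is at the right end of its place, the side facing the peaks. Hbs1l and Sgk1 are transcribed the other way. The mm9 places used here were 20.84 to 20.88 Mb for Myb, 20.9 to 21 Mb for Hbs1l and 21.6 to 21.72 Mb for Sgk1. Those of Myb and Sgk1 are rounded to 10 kb, so distances from them are approximate by about 5 kb. The spacing of Myb and Sgk1 matched the gene table within 20 kb. That of Hbs1l, whose place is rounded to 100 kb, did not: it begins 20 kb from Myb, much nearer than in the gene table. By that place, the listed peak nearest Myb would lie inside Hbs1l, and the following peaks about 48 and 139 kb from it. Because the place is uncertain, no peak is assigned to Hbs1l on it.

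The interval carries the names of Myb and Sgk1, but no listed peak lay in the Myb place. The peaks fell into 3 sets of 3 by their position: between Myb and Sgk1, inside Sgk1, and beyond Sgk1. All 6 peaks of the first and second sets scored 9.73 or more, and all 3 peaks of the last scored 6.63 or less. The last set is cut by the right limit of the interval. The next listed peaks past that limit scored 9.15, 11.21 and 8.47. The score is the authors' value for each peak, without a stated unit or meaning, and is compared only within this list.

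**Figure D1:**
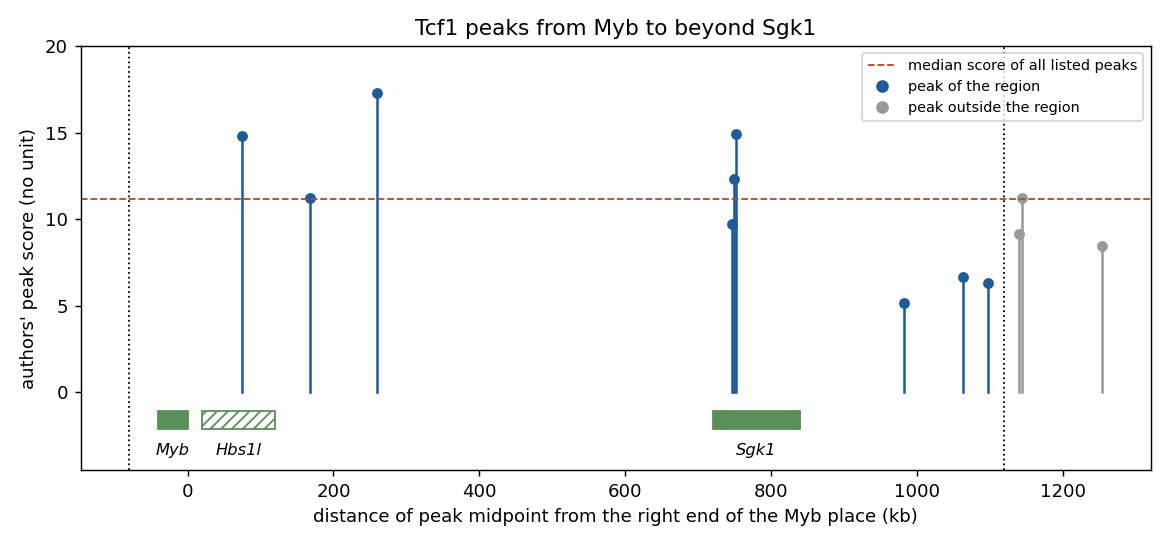
Each stem is a listed Tcf1 peak, placed by the distance of its midpoint from the right end of the Myb place (kb) and as high as the authors' score; dotted lines mark the limits of the interval, bars the approximate gene places, and the hatched bar the uncertain place of Hbs1l, which starts farther from Myb in the gene table. Stems stand at 75, 168 and 259 kb from Myb with scores of 11.21 to 17.27, and 3 stand together in Sgk1. The 3 low ones of the interval lie 142 to 258 kb beyond Sgk1. Grey stems past the right limit have scores of 8.47 to 11.21. The left neighbour outside the interval is beyond the plotted range.

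The sequences under the peaks could not be read, as no mm9 genome was used here. To show the DNA at the starts of the genes, the 250 bases before each start that RefSeq lists in GRCm38.p6 were searched for CTTTGAA and CTTTGAT on both strands. All 3 genes were matched, with 1 start for Myb, 1 for Hbs1l and 6 for Sgk1. Of the 8 promoters, 2 held a match, both at Sgk1, against 7.48% of 32851 promoters in the table. The 6 Sgk1 promoters belong to the same gene and are not independent.

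The Sgk1 promoters with a match are printed with that of Myb, in which these letters were not found. Each is given 5′ to 3′ on the strand of its gene and ends at the base before the start, with matches on either strand in capitals. The most upstream Sgk1 start lies after chr10:21881934-21882183 (plus strand, GRCm38.p6) and holds CTTTGAA on the opposite strand, beginning 223 bases before the start. The second lies after chr10:21978422-21978671 (plus strand) and holds CTTTGAT 179 bases and CTTTGAA, on the opposite strand, 170 bases before the start. The Myb sequence is chr10:21160985-21161234 (minus strand), with a GC content of 81.2%, against a median of 52.4% over all promoters. The printed Sgk1 sequences had 48.4% and 46.4%. The Hbs1l promoter, which is not printed, also held no match and had 58.4%. The promoter coordinates belong to GRCm38.p6 and cannot be set beside the mm9 positions of the peaks.
Sgk1 start 1: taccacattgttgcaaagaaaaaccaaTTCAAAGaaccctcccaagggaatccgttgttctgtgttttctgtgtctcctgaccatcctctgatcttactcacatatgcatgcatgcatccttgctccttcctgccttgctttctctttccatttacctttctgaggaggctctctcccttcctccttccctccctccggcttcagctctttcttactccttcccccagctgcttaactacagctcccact
Sgk1 start 2: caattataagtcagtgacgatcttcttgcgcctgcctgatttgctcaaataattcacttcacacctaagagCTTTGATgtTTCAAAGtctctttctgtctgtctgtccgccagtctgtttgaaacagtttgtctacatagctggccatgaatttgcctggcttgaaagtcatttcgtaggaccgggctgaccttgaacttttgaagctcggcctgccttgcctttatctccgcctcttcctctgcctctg
Myb start 1: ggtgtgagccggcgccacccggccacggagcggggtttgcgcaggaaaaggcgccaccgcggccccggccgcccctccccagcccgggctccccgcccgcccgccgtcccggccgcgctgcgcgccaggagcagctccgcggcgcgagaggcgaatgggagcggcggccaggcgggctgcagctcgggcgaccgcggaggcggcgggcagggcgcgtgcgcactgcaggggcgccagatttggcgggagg

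The builds differ, so these promoters were not overlapped with the peaks, and the mm9 positions of the Sgk1 starts inside the gene were not used here. By the mm9 places, the nearest peak to the Myb start was about 75 kb away and the Sgk1 run began about 27 kb past the left end of Sgk1. A match in these windows describes the letters and is not a binding site measured here.

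The 3 peaks between Myb and Sgk1 were widely spaced. Their distances are given from Myb, but this does not assign them to Myb. The peak nearest Myb covered positions 20955022 to 20955393, about 75 kb from the Myb place. It was 372 bp wide and scored 14.82. Of all listed peaks, 82.8% scored lower. The next covered positions 21047521 to 21047734, about 168 kb from Myb, was 214 bp wide and scored 11.21. That score stood in the middle of the list, with 50.2% of peaks below it, and was shared by 163 peaks in all.

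The highest score of the interval belonged to the peak farthest from Myb in this set. It covered positions 21138964 to 21139270, about 259 kb from Myb, was 307 bp wide and scored 17.27. In the whole list 91.9% of peaks scored lower, and on chromosome 10 only 6 of 151 peaks scored higher. The first and second peaks were 92.4 kb apart and the second was 91.5 kb from the last, measured between midpoints. In the GRCm38.p6 tables, the starts of Myb and Hbs1l were about 135 kb apart and Hbs1l was about 73 kb long. If that spacing also holds in mm9, which was not checked, the peak 75 kb from Myb lies between Myb and Hbs1l, the peak at 168 kb lies within Hbs1l, and the peak at 259 kb lies past it. All of them lie between Myb and Sgk1. In the gene table Aldh8a1 also stands between Hbs1l and Sgk1. No mm9 place for it was used here, so no peak was set against it.

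Sgk1 carried a tight run of peaks in the part of the gene nearer to its left end, where the most upstream start lies. The other starts lie far to the right in GRCm38.p6. There, start 2 follows chr10:21978422-21978671 and start 6 follows chr10:21994416-21994665. If that spacing also holds in mm9, which was not checked, the run lies past start 1 and upstream of starts 2 to 6. The peaks stood about 27, 29 and 31 kb into the place of Sgk1, at 22.6% to 26.2% of its length of 120 kb. The first covered positions 21626926 to 21627286 (361 bp) and scored 9.73. The second covered positions 21628453 to 21628882 (430 bp) and scored 12.29. The last covered positions 21631371 to 21631611 (241 bp) and scored 14.93, higher than 83.4% of the list. Scores were higher from left to right along the run, and its narrowest peak had the highest.

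The Sgk1 peaks were 1.56 and 2.82 kb apart between midpoints, with 1.17 and 2.49 kb of sequence between their edges. The whole run spanned 4.69 kb. On the autosomes, 29 runs held at least 3 peaks with no more than 10 kb between the edges of neighbours, and 21 of them held exactly 3. Of the 29, 5 were shorter than the Sgk1 run, and the median span was 11.2 kb. The 29 include runs of more than 3 peaks, which can span more, and runs of exactly 3 were not compared separately. The median score of the Sgk1 run was 12.29, against a median of 11.11 over the runs, and 9 runs had a higher one.

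The 3 peaks of the interval beyond Sgk1 had low scores, though the next listed peaks past the right limit scored 8.47 to 11.21. The first, at positions 21862053 to 21862861 and about 142 kb past the end of the Sgk1 place, scored 5.15, and only 1.45% of listed peaks scored lower. At 809 bp it was the widest of the 151 peaks on chromosome 10, and 0.92% of all listed peaks were wider. In the whole list, the 43 peaks of 700 bp or more had a median score of 5.89.

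The other peaks of this set covered positions 21943174 to 21943572 (399 bp, score 6.63), about 223 kb past Sgk1, and 21977793 to 21978051 (259 bp, score 6.31), about 258 kb past it. They scored above 8.31% and 6.83% of the list. These peaks lie toward the genes that follow Sgk1, and no gene was assigned to them, since no mm9 place for those genes was used here. Whether the control serum gave signal in these intervals was not tested. Raet1 and H60 are families of similar copies, and the sources used here do not say how reads matching several places were handled. Whether this bears on these peaks was not tested.

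**Figure D2:**
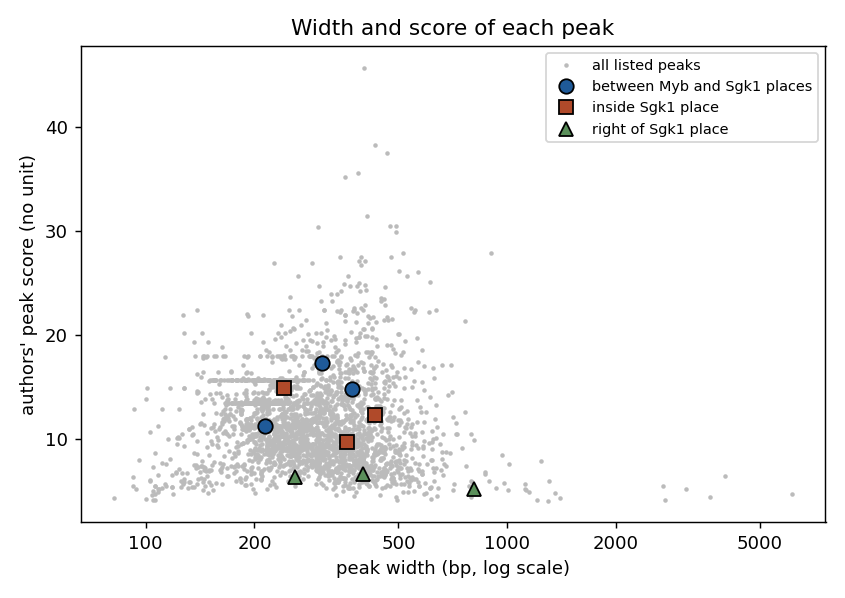
Each point is a listed peak, with its width on a log scale (bp) and the authors' score; large symbols mark the 9 peaks of the interval by their position relative to Sgk1. The triangles, for the peaks right of Sgk1, lie between 5.15 and 6.63, below every circle and square, and the rightmost triangle is the peak of 809 bp.

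Set against the list, the scores of the interval were spread to both sides. Its median score was 11.21 (range 5.15 to 17.27), against 11.17 over all 2827 peaks. A score of at least 14 was reached by 3 of the 9, against 20.4% of the list, and a score under 7 by another 3 of the 9, against 11.2% of the list and 17.2% of the 151 peaks on chromosome 10. These limits were set after the values were seen. Between Myb and the end of Sgk1 alone, which leaves out the 3 peaks with a score under 7, the 6 peaks had a median score of 13.55. The peaks of the interval had a median width of 361 bp (range 214 to 809 bp), against 276 bp for the list. In all, 5 of the 9 were at least 350 bp wide, against 29.4% of the list, a limit also set after the values were seen. Together the 9 peaks covered 3.39 kb, or 0.283% of the interval.

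Spacing within the interval was uneven. The 9 peaks in 1.2 Mb make 7.5 per Mb, against 1.2 per Mb over the 125.8 Mb between the first and last peak of chromosome 10. This density is what the interval was chosen for. From each of the 2667 autosomal peaks a window of 1.2 Mb was opened to the right. Of these windows, 30 (1.12%) held 9 or more peaks, and the median window held 2. The windows overlap, so a crowded place, this interval included, is counted more than once. The window from the first peak here also takes in peaks past the right limit, so it holds more than 9. The median gap between neighbours was 86.2 kb over the 8 gaps of the interval, against 432 kb over 2648 autosomal gaps. The longest gap, 488 kb, separated the peaks between Myb and Sgk1 from the Sgk1 run, and 231 kb separated that run from the first peak beyond Sgk1. The remaining gaps, among the peaks beyond Sgk1, were 80.9 and 34.5 kb. Only the 3 Sgk1 peaks had a neighbour within 10 kb, edge to edge, or 3 of 9 against 16.3% of the list.

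**Figure D3:**
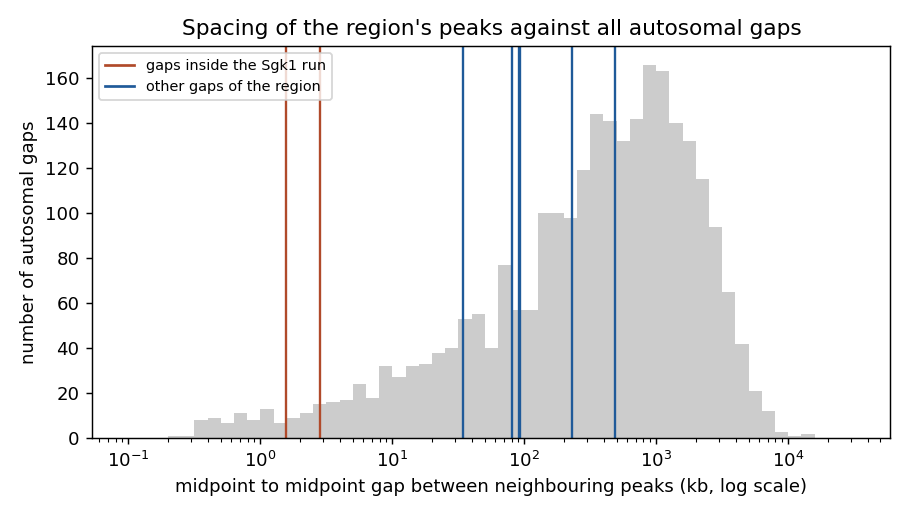
The grey histogram counts the 2648 midpoint to midpoint gaps between neighbouring autosomal peaks (kb, log scale), and vertical lines mark the 8 gaps of the interval. The gaps inside Sgk1, 1.56 and 2.82 kb, lie in the short tail, while the longest, 488 kb, is close to the autosomal median of 432 kb.

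The left and right limits differed in how cleanly they bounded the crowding. To the left, the nearest peak outside the interval covered positions 20179479 to 20179757, was 279 bp wide, scored 10.01 and lay 776 kb from the first peak inside. That stretch without a listed peak takes in Myb. To the right, the next peaks outside covered positions 22019211 to 22019515 (305 bp, score 9.15) and 22023616 to 22023833 (218 bp, score 11.21), and the nearer was only 41.4 kb from the last peak inside. The right limit thus divides a continuing series of peaks, which went on with a peak at 22133449 to 22133795 (347 bp, score 8.47). An unlisted place is not shown to lack Tcf1, since no reads were used.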

How the data were processed

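The data came from 2 ChIP-seq libraries of splenic CD8 T cells, 1 for each serum. The authors deposited 1 list of intervals with a score per peak, which the track line names strong peaks, and the build mm9 and the tools MACS 1.4.1, Bowtie 0.12.5 and CASAVA 1.8 come from the submitters' processing notes. The use of each tool, the peak threshold, the treatment of duplicate and multiply mapped reads and the role of the control library are not given in the sources used here. These choices decide which peaks are listed.

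The interval, the gene places and the summaries were chosen with earlier results of these data known. The genes named were Myb, Hbs1l and Sgk1 and their neighbours in the gene table, and every peak of the interval is given. Widths, scores and gaps were summarised without tests. Positions are counted from 1. GRCm38.p6 coordinates were not converted. In 20 of 20 simulated lists of 232 peaks, the planted region peaks, gaps, neighbours, runs and motifs were recovered. The motifs were planted in sequence of C and G only, where no other match could occur. Percentiles, distances to genes and window counts were not checked in this way. Python 3.11.15, NumPy 2.4.6, SciPy 1.17.1 and Matplotlib 3.10.9 were used.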

Additional observations from a re-analysis of the deposited data

How the results depend on the processing

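The 18 alternatives reuse subsets of the same 9 peaks or 8 promoters, so they say little about stability. Keeping only peaks at or above the list's median score left 5 of the 9 peaks, fewer by construction. With a limit of 50 kb in place of 10 kb, 5 peaks had a neighbour, adding a pair beyond Sgk1, against 33.0% of the list. On the strand of the gene only, 1 promoter held CTTTGAA or CTTTGAT, against 4.0% of all promoters; with CTTTGA alone on both strands 2 of the 8 held it, and the share of all promoters was 13.8%, against 7.48%. Limiting the interval to the stretch from Myb to the end of Sgk1 left 6 of the 9 peaks. It dropped the lowest scores of the interval, so the median score rose by construction, from 11.21 to 13.55. No paired analysis was possible because each serum has 1 library. Without reads, depth and the error of a single peak are unknown. The rounded gene places limit every distance to a gene.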
